A study of Homo sapiens with 4 samples.

Results

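The genes described here are the receptors of melatonin (MTNR1A, MTNR1B), the last enzymes of its synthesis (AANAT, ASMT), its intracellular binding protein NQO2, the aryl hydrocarbon receptor (AHR) with its repressor (AHRR), and the CYP1 enzymes that oxidise melatonin (CYP1A1, CYP1A2, CYP1B1). They are 10 of the 61806 genes in the table and were chosen by symbol, by a rule that used no measured value, although earlier results of these data were known. RNA was sequenced from 2 human bone cancer lines, JJ012 (chondrosarcoma) and 143B (osteosarcoma), both kept in suspension, detached from a substrate, controls included. In each line, cells given 1 mM melatonin for 72 h were set against cells left untreated, with 1 library per condition and 4 libraries in all. Each line is 1 established culture, and there was no replicate of any condition. The columns of the treated cells were recognised by a suffix T, a reading on which each direction given for melatonin depends. A difference between libraries therefore has no replicate check, and the intervals given below cover counting error only, with PCR reads that are not independent molecules.

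Melatonin is made from tryptophan by way of serotonin, which AANAT acetylates and ASMT then methylates. The hormone acts at the cell surface through the G protein-coupled receptors encoded by MTNR1A and MTNR1B, is hydroxylated mainly by CYP1A2 in the liver, and is also a substrate of CYP1A1 and CYP1B1. The aryl hydrocarbon receptor (AhR) is a ligand-activated transcription factor that pairs with ARNT, binds DNA at a short core sequence and induces the CYP1 genes, AHRR and TIPARP, and the products of AHRR and TIPARP in turn restrain it.

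The libraries held between 15889564 and 19218343 counts, so that 3 counts, the limit that a count of 0 allows, came to between 0.156 and 0.189 CPM. Mitochondrially encoded genes took 6.78% of counts in the JJ012 control and 4.35% with melatonin, and 1.63% and 2.46% in 143B. Among the markers of the tissues of origin, the chondrocyte genes ACAN, COL2A1 and COL9A1 had at most 4 counts in either JJ012 library, whereas SOX9 had 15.06 and 6.16 FPKM. The osteoblast genes SP7 and IBSP had at most 1 count in either 143B library, whereas RUNX2 had 4.28 and 2.75 FPKM. SOX9 was also found in 143B (15.48 and 12.09 FPKM), and RUNX2 in JJ012 (3.02 and 2.59 FPKM). The 7 chondrocyte markers summed to 17.75 and 7.13 FPKM in JJ012 and to 17.26 and 13.82 in 143B. The 7 osteoblast markers summed to 94.74 and 68.20 FPKM in JJ012, mostly from SPP1 (79.39 and 64.50), and to 6.97 and 5.07 in 143B. These markers thus did not set the lines apart by tissue of origin. In JJ012, 7 markers of blood, endothelial and epithelial cells summed to 15.45 FPKM in the control and 6.30 with melatonin, mostly from the T cell gene CD3E (9.73 and 3.28), while PTPRC, carried by white blood cells, had 42 and 4 counts. All 3 mesenchymal markers fell in JJ012, among them VIM, from 610.99 to 224.27 FPKM, and COL1A2, from 12.48 to 0.14 FPKM. The osteoblast marker COL1A1 fell there from 10.92 to 0.77 FPKM. Of the 2 mesenchymal markers tested in 143B, FN1 fell from 69.52 to 34.76 FPKM, and VIM (1676.32 and 1517.09 FPKM) stayed under the threshold of 0.58. In 143B, the 7 markers of blood, endothelial and epithelial cells summed to 4.63 and 4.05 FPKM. The part of these shifts in the results below was not tested, and in bulk RNA fewer cells of a type and less RNA per cell cannot be told apart.

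AhR with ARNT recognises the core GCGTG. The 250 bases before the RefSeq start were searched for it on both strands (CACGC on the printed strand), and 32.2% of all 35116 RefSeq windows of that length hold it. Of the 10 genes, 9 matched a RefSeq promoter (GRCh38.p14), and 6 of these hold the core, namely MTNR1B, AANAT, ASMT, NQO2, CYP1A1 and AHRR. The share of 32.2% is per window and the 6 are genes, of which ASMT and AHRR have 2 windows each, all with the core. AHR, CYP1A2 and MTNR1A have no such letters in the window, and CYP1B1 is named only. The promoters below are those of CYP1A1, which fell in 143B, of TIPARP, an AhR target that passed the threshold of 0.58 in opposite directions in the lines, and of AHRR, the repressor with a large difference between the lines. CYP1A1 lies on the minus strand at chr15:74725529-74725778, with the core 57 bases before the start. TIPARP lies on the plus strand at chr3:156674340-156674589, with cores 208 and 142 bases before the first of its 3 RefSeq starts and none before the others. AHRR lies on the plus strand at chr5:321464-321713, with the core 30 bases before the first of its 2 RefSeq starts. The second start, not printed, has cores 247 and 42 bases before it. Each is written 5′ to 3′, with the core in capitals.
CYP1A1: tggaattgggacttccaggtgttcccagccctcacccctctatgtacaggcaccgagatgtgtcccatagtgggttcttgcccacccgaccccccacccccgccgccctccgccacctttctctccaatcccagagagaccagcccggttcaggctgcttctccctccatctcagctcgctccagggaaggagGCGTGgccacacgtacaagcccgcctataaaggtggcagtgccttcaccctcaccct
TIPARP: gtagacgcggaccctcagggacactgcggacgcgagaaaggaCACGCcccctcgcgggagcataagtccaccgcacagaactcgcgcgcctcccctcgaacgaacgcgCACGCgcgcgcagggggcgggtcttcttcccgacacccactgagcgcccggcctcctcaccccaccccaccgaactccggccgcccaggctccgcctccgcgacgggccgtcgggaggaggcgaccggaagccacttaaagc
AHRR: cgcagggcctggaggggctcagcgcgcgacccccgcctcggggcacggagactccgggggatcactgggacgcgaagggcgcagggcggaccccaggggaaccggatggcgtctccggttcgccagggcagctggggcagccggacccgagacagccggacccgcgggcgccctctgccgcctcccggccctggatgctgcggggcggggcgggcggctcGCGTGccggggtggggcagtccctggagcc
A match of these letters is a description of the sequence and not a measured binding site. The longer form TNGCGTG, which contains the core, is found in 4.52% of the windows. It occurs in the windows of MTNR1B and of the first AHRR start, and not in those of CYP1A1 or TIPARP.

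Transcripts of the receptors were at or near the detection limit in both lines. MTNR1A (chr4:186526792-186555567, minus strand, hg38 as in the deposited positions) had 2 counts in the JJ012 control, 1 with melatonin and 0 in both 143B libraries. Its FPKM of 0.01 in each JJ012 library lay under the limit of 0.0191 to 0.0232 FPKM that 3 counts give in these libraries. No fold is given for MTNR1A, since neither line exceeded that limit. MTNR1B (chr11:92969651-92985066, plus strand) had 2 counts (0.05 FPKM) in the JJ012 control and 12 counts (0.37 FPKM) with melatonin, against 0 counts in both 143B libraries. The ratio of counts scaled to the library total (CPM) was 7.14 (95% interval 1.59 to 65.7) for melatonin over control in JJ012, with 1 FPKM reached in neither library. With melatonin, JJ012 stood 4.25-fold above 143B for MTNR1B when 3 counts are put in place of the 0 in 143B. That value carries no interval for the counting error of the 12 counts. Even the higher of the JJ012 libraries thus rested on 12 counts.

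The genes of melatonin synthesis were equally low. AANAT (chr17:76453351-76470117, plus strand), which acetylates serotonin, had 4 counts in the JJ012 control, 0 with melatonin, 2 in the 143B control and 7 with melatonin, or 0.10, 0, 0.06 and 0.19 FPKM. The 143B ratio was 3.24 (0.617 to 32.0), an interval that takes in no change. ASMT (chrX:1615059-1643081, plus strand), which methylates N-acetylserotonin, had 8 counts (0.23 FPKM) in the JJ012 control and 0 in the other libraries. It was lower with melatonin in JJ012, at least 2.24-fold when 3 counts are put in place of the 0, while the exact interval of the counts as they are starts at 1.43-fold. Upstream of these, TPH1, the hydroxylase that starts the pathway outside neurons, had 34 and 13 counts in JJ012 and 32 and 23 in 143B. The decarboxylase DDC had 8 counts in the JJ012 control and 0 in each of the other libraries. None of the 5 synthesis genes reached 1 FPKM in any library.

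NQO2 (chr6:2987987-3019755, plus strand), a quinone reductase that binds melatonin and is known as the MT3 site, was the most abundant of the 10 genes in 3 of the 4 libraries. It had 985 counts in the JJ012 control, 831 with melatonin, 382 in the 143B control and 442 with melatonin. These are 21.13, 21.22, 9.91 and 10.61 FPKM, so that the JJ012 libraries stood above both 143B libraries and the libraries within each line lay close together. The log2 ratio of CPM, melatonin over control, was 0.01 (-0.13 to 0.14) in JJ012 and 0.10 (-0.10 to 0.30) in 143B. The difference between these effects, 143B minus JJ012, was 0.09 (-0.15 to 0.34), an interval that takes in 0 without showing that the effects were equal. Untreated JJ012 had 2.13-fold more NQO2 than untreated 143B (1.89 to 2.41), and this log2 ratio of 1.09 was 0.74 with TMM scaling and 0.71 as TPM. LINC01011, on the same strand, shares 292 exon bases with NQO2 (GENCODE 29) and had 81, 78, 120 and 146 counts, and how shared reads were counted is not given in the sources used here.

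**Figure D1:**
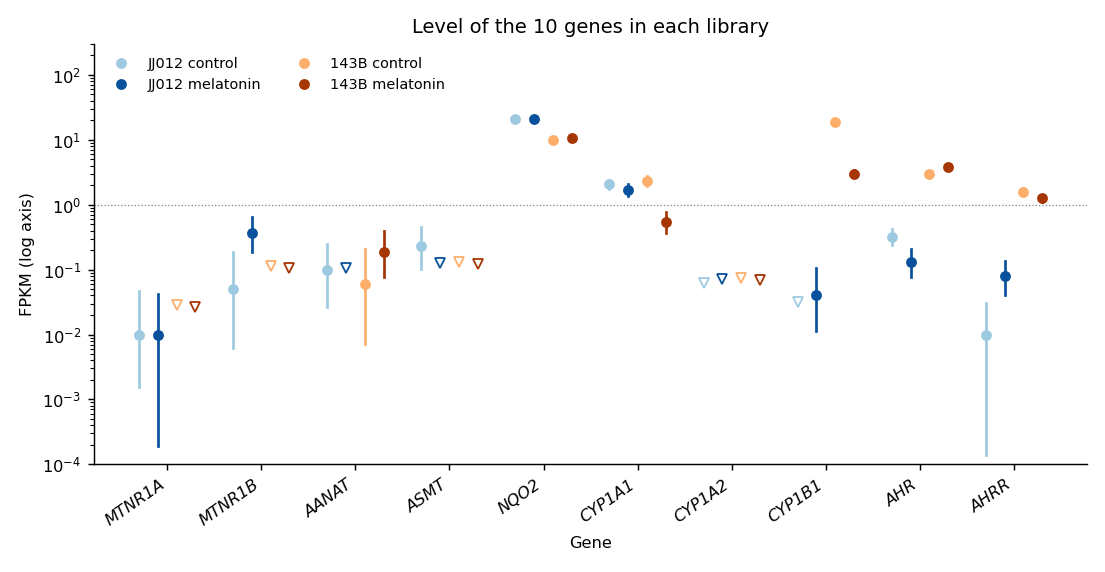
FPKM of the 10 genes in the 4 libraries on a log axis. Points are deposited FPKM, bars are 95% Poisson intervals of the count on the FPKM scale, open triangles mark the upper limit for libraries with 0 counts, and the dotted line is 1 FPKM. NQO2 stood above 9 FPKM in all libraries, CYP1B1, AHR and AHRR were higher in 143B, and the receptor and synthesis genes stayed under 0.4 FPKM.

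The members that passed the threshold with melatonin were CYP1 enzymes, in 143B. CYP1B1 (chr2:38066973-38109902, minus strand) had 1799 counts in the 143B control and 310 with melatonin, against 0 and 4 counts in JJ012. Its levels were 18.92 and 3.02 FPKM in 143B, where it was the highest of the 10 genes in the control and ranked behind NQO2 and AHR with melatonin, and 0 and 0.04 FPKM in JJ012. CYP1B1 fell 6.27-fold in 143B (5.55 to 7.09), with a log2 ratio of CPM of -2.65 (-2.83 to -2.47). On the scale of log2(FPKM + 1) used for counting genes, the change was -2.31, and 8 of the 14135 genes tested in 143B had a lower value. In JJ012, CYP1B1 had 4 counts with melatonin against 0, and the exact interval of that ratio starts at 0.786, which takes in no change. The untreated 143B library had at least 725-fold more CYP1B1 than the untreated JJ012 library, when 3 counts are put in place of the 0, and the exact interval of the counts as they are starts at 589-fold.

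CYP1A1 (chr15:74719542-74725536, minus strand), a strongly inducible AhR target, had in the controls 133 counts (2.06 FPKM) in JJ012 and 125 counts (2.34 FPKM) in 143B. With melatonin it had 92 counts (1.70 FPKM) in JJ012 and 31 counts (0.54 FPKM) in 143B. CYP1A1 fell 4.36-fold in 143B (2.92 to 6.68), the lowest of the 4 libraries and apart from the other 3 by its Poisson interval. On the log2(FPKM + 1) scale the change was -1.12, and 292 genes (2.07% of those tested) had a lower value. In JJ012, the log2 ratio of CPM was -0.28 (-0.68 to 0.11), which takes in no change, and the FPKM-based value was -0.18. The effect in 143B was lower than that in JJ012 by a log2 difference of -1.84 (-2.58 to -1.13), an interval from the 4 counts that excludes 0 but carries no error between cultures. Between the untreated lines, the log2 ratio of JJ012 over 143B was -0.18 (-0.55 to 0.18). It was -0.53 (-0.90 to -0.17) with TMM scaling and -0.57 (-0.93 to -0.20) as TPM, intervals that leave out 0. CYP1A2 (chr15:74748845-74756607, plus strand), the main melatonin hydroxylase of the liver, had 0 counts in all 4 libraries, which allows at most 0.0498 to 0.0603 FPKM.

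CYP1B1 overlaps CYP1B1-AS1 on the other strand, with 678 shared exon bases in GENCODE 29. CYP1B1-AS1 had 18 and 12 counts in JJ012 and 32 and 8 in 143B, a 143B log2 ratio of -2.11 (-3.44 to -0.96). Without a stated strand setting, reads of the antisense gene and of CYP1B1 cannot be told apart where they overlap. In the 143B control, the antisense gene's 32 counts stood beside 1799 for CYP1B1.

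**Figure D2:**
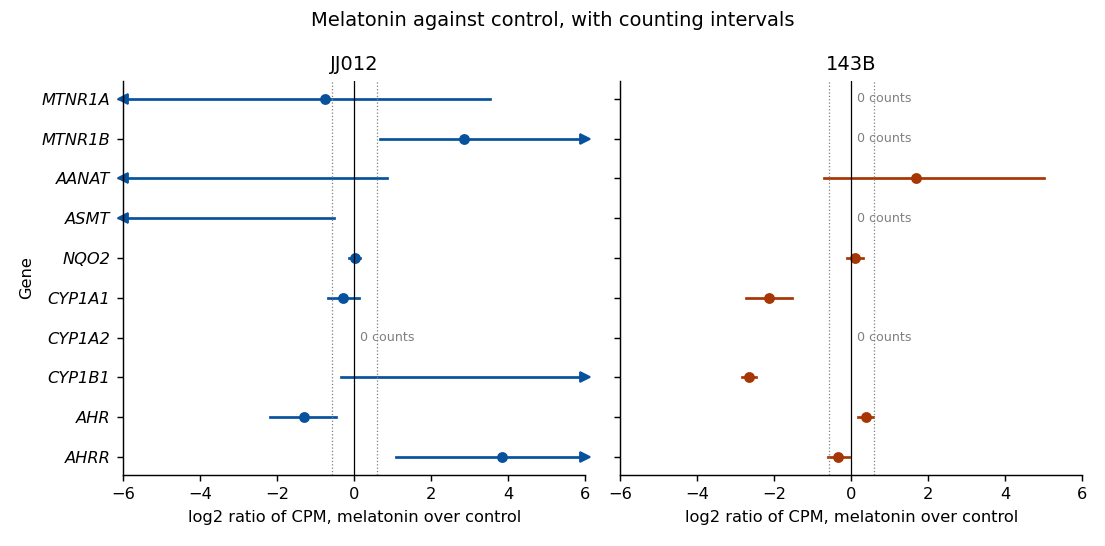
Log2 ratio of CPM, melatonin over control, for the 10 genes in JJ012 (left) and 143B (right). Points are ratios of libraries that both have counts, bars are exact 95% intervals of the counts, arrowheads mark intervals that run past the axis, dotted lines stand at 0.58 in either direction, and genes with 0 counts in both libraries carry no point. In 143B, CYP1A1 and CYP1B1 lie far to the left, and in JJ012 the intervals of MTNR1B, AHRR, ASMT and AHR lie on one side of 0.

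AHR (chr7:16916359-17346152, plus strand) was higher in 143B than in JJ012, and its CPM ratios lay on opposite sides of 1 in the lines. It had 50 counts (0.32 FPKM) in the JJ012 control and 17 (0.13 FPKM) with melatonin, and 375 (2.93 FPKM) in the 143B control and 526 (3.81 FPKM) with melatonin. Both 143B libraries stood above both JJ012 libraries, and untreated JJ012 was 9.07-fold lower than untreated 143B (6.74 to 12.4). In JJ012, AHR was 2.47-fold lower in CPM with melatonin (1.40 to 4.57), under 1 FPKM in both libraries. In 143B it was 1.30-fold higher, a log2 ratio of 0.38 (0.18 to 0.57) and, on the FPKM-based scale, 0.29, under the threshold of 0.58. The log2 difference between the effects was 1.68 (0.83 to 2.59). A gene without a symbol on the same strand, ENSG00000289189, lies within the deposited span of AHR and had 282, 44, 5 and 0 counts, and whether its reads could enter the AHR count was not tested. ENSG00000283321, also on the same strand, shares 2373 exon bases with AHR (GENCODE 29) and had 0 counts in every library. How reads in those shared bases were counted is not given in the sources used here.

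AHRR (chr5:321714-438291, plus strand), the repressor that competes with AhR for ARNT, was found mostly in 143B. It had 1 count in the JJ012 control and 12 with melatonin, or 0.01 and 0.08 FPKM. In 143B it had 238 counts (1.58 FPKM) in the control and 204 (1.25 FPKM) with melatonin, so that both 143B libraries lay above both JJ012 libraries. The log2 ratio for 143B was -0.33 (-0.61 to -0.06) in CPM and -0.20 on the FPKM-based scale, under the threshold. The JJ012 ratio was 14.3 (2.11 to 611) from 1 count against 12. Untreated JJ012 was 288-fold lower than untreated 143B (51.2 to 11417). The readthrough gene PDCD6-AHRR shares its strand and span and had 2, 4, 4 and 12 counts.

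Counted over genes with at least 1 FPKM in a library of the line, at an absolute log2 change of at least 0.58 in FPKM + 1, none of the 2 members tested in JJ012 (NQO2 and CYP1A1) passed, where 19.6% of all 15794 genes were higher and 18.6% lower. In 143B, 0 of 5 rose and 2 fell (CYP1A1 and CYP1B1), where 6.09% of all 14135 genes were higher and 6.65% lower. The members' median was -0.09 in JJ012 and -0.20 in 143B, beside 0.01 and 0.03 for all genes tested. By the CPM ratio, which reaches low genes and asks for a log2 ratio of at least 0.58 with an interval without 0, 2 of the 8 members over 3 counts in JJ012 were higher (MTNR1B and AHRR) and 2 lower (ASMT and AHR), with a background of 16.9% higher and 21.7% lower. In 143B, 0 of 6 were higher and 2 lower (CYP1A1 and CYP1B1), with a background of 8.06% and 7.46%. Between the untreated lines, NQO2 was higher in JJ012 and AHR, AHRR and CYP1B1 were lower, 1 and 3 of the 5 members tested, where 41.3% of all 16929 genes were higher in JJ012 and 27.4% lower.

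**Figure D3:**
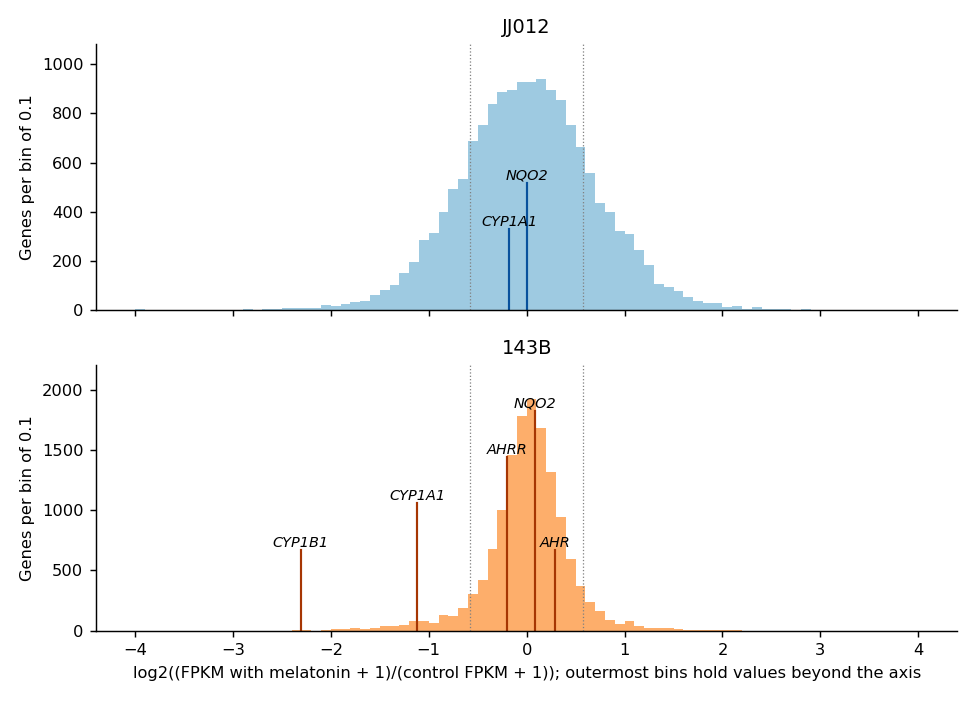
Number of genes per bin of 0.1 in log2((FPKM with melatonin + 1)/(control FPKM + 1)) for all genes tested in JJ012 (top) and 143B (bottom), with the members tested drawn as labelled lines and the threshold of 0.58 dotted. The JJ012 values spread wider than those of 143B, and CYP1A1 and CYP1B1 lie in the left tail of 143B.

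The order of levels within a library followed the same division. In the JJ012 control, NQO2 (21.13 FPKM) stood above CYP1A1 (2.06), and CYP1A1 above AHR (0.32), while the Poisson intervals of AHR and ASMT (0.23) overlapped. In the 143B control, the order was CYP1B1 (18.92 FPKM), NQO2 (9.91), AHR (2.93), CYP1A1 (2.34) and AHRR (1.58). The intervals of AHR (2.64 to 3.24) and CYP1A1 (1.95 to 2.79) overlapped and do not set an order between them. With melatonin, the 143B order became NQO2 (10.61), AHR (3.81), CYP1B1 (3.02), AHRR (1.25) and CYP1A1 (0.54), each apart from its neighbour by the Poisson intervals. CYP1B1 thus went from the first place to the third, and CYP1A1 from above AHRR to below it.

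Other AhR targets were read from a written list of 17 genes that includes the CYP1 genes and AHRR. In 143B, 10 were tested, 1 rose (SERPINB2) and 3 fell (CYP1B1, CYP1A1 and TIPARP), with a median of -0.34, beside 6.09% of all genes higher and 6.65% lower. In JJ012, 8 were tested, 3 rose (SLC7A5, TIPARP and CYP2S1) and 2 fell (PTGS2 and NQO1), with a median of 0.11, beside 19.6% of all genes higher and 18.6% lower.

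TIPARP, an ADP-ribosyltransferase that marks AhR for degradation, had 344 counts (3.73 FPKM) in the JJ012 control and 556 (7.18 FPKM) with melatonin, and 1545 (20.26 FPKM) in the 143B control and 952 (11.55 FPKM) with melatonin. It rose in JJ012, with a log2 ratio of CPM of 0.94 (0.75 to 1.14), and fell in 143B, with -0.81 (-0.93 to -0.69). Even after these opposite shifts both 143B libraries stayed above both JJ012 libraries. SERPINB2, a serine protease inhibitor, had 9 counts (0.21 FPKM) in the 143B control and 90 (1.91 FPKM) with melatonin, a 9.26-fold rise (4.67 to 20.9), against 4 and 0 counts in JJ012. NQO1, the quinone reductase related to NQO2, fell in JJ012 from 40.53 to 23.94 FPKM, a log2 change of -0.74. In 143B it had 7.58 and 5.39 FPKM, a log2 change of -0.43 that was under the threshold.

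The other targets that passed did so in JJ012. PTGS2, the inducible cyclooxygenase, fell from 154 to 25 counts (1.46 to 0.28 FPKM) in JJ012, and had 81.09 and 61.64 FPKM in 143B. SLC7A5, a transporter of large neutral amino acids, rose from 9.22 to 19.75 FPKM in JJ012 and had 34.69 and 28.37 FPKM in 143B. CYP2S1, a further P450 enzyme, rose from 0.82 to 1.80 FPKM in JJ012 and had 0.86 and 1.52 FPKM in 143B, with log2 changes of 0.62 and 0.44. KYNU, an enzyme of kynurenine breakdown, had 1669 and 1255 counts in JJ012 and 1 count in each 143B library. Of the conjugating enzymes, UGT1A1 had 17 and 1 counts in JJ012 and 0 in 143B, and GSTA1 had at most 2 counts in any library.

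**Figure D4:**
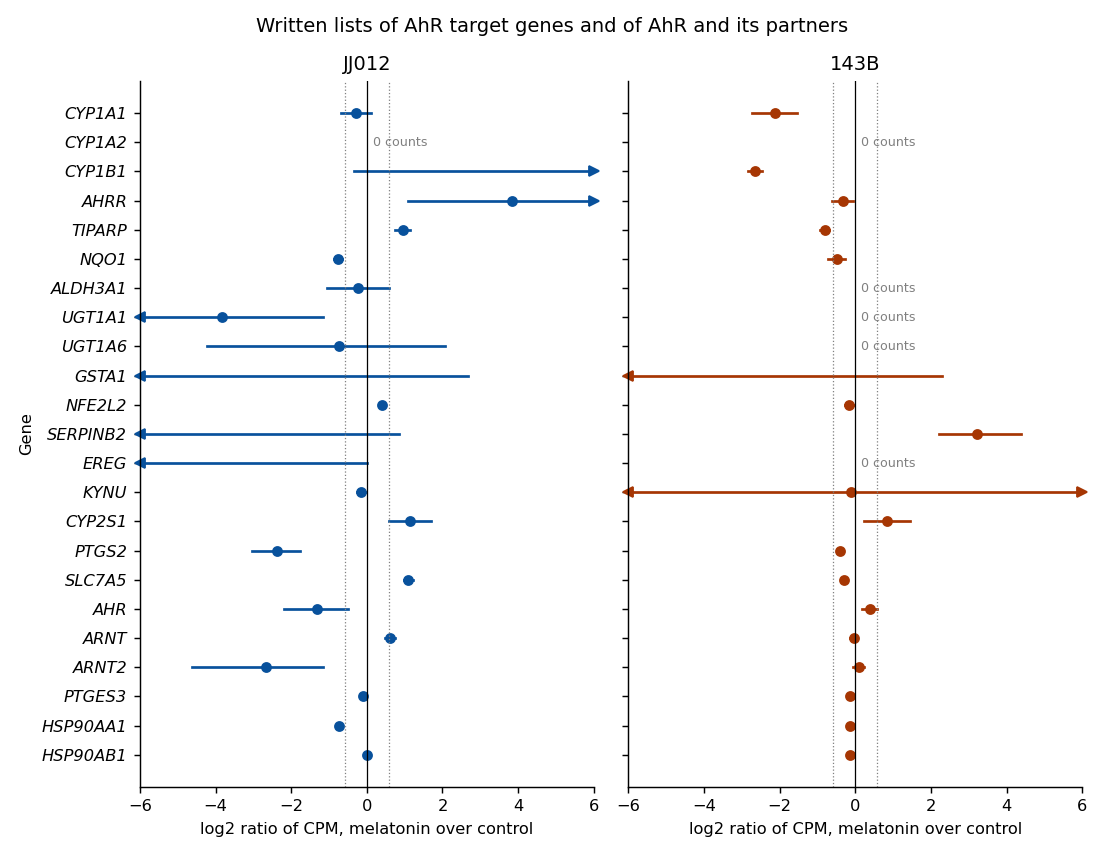
Log2 ratio of CPM, melatonin over control, for the written lists of 17 AhR target genes (top) and of AhR with 5 of its partners (bottom, without AHRR, which is drawn among the targets), in JJ012 (left) and 143B (right), with exact 95% intervals of the counts, arrowheads for intervals that run past the axis and dotted lines at 0.58 in either direction. TIPARP lies to the right of 0 in JJ012 and to the left in 143B, and CYP1A1 and CYP1B1 have the lowest ratios of the list in 143B among genes over 3 counts.

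Among AHR and its partners, a list of 8 genes with AHRR, 5 were tested in JJ012 and HSP90AA1 fell, from 130.57 to 78.59 FPKM, while 0 of 8 passed in 143B. Of all genes tested, 19.6% were higher and 18.6% lower in JJ012, and 6.09% were higher and 6.65% lower in 143B. The medians were -0.09 and -0.08. ARNT, the dimer partner of AhR, had 7.24 and 11.08 FPKM in JJ012, a log2 change of 0.55, and 17.59 and 17.12 FPKM in 143B. ARNT2, its paralogue, had 30 and 4 counts in JJ012 (0.20 and 0.03 FPKM) and 695 and 799 in 143B (5.65 and 6.02 FPKM). The chaperone HSP90AB1 had 337.28 and 336.95 FPKM in JJ012 and 439.13 and 401.22 FPKM in 143B.

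The remaining lists concern the proteins that melatonin meets. Of 9 receptor and G protein genes, 6 were tested in each line, with medians of 0.02 and -0.02. GNAI2, an inhibitory G protein subunit, was lower in JJ012 (48.66 to 27.20 FPKM) and under the threshold in 143B (37.60 and 38.07 FPKM). It was the 1 gene of the 6 past the threshold in JJ012, where 19.6% of all genes were higher and 18.6% lower. In 143B, 0 passed, beside 6.09% of all genes higher and 6.65% lower. Of 12 genes for other binding proteins and transporters, 8 were tested in each line. In JJ012, 0 rose and 3 fell with a median of -0.40, namely CALR, CALM3 and NQO1, beside 18.6% of all genes lower. In 143B none passed, with a median of 0.01, beside 6.09% of all genes higher and 6.65% lower. CALR, the endoplasmic reticulum chaperone calreticulin, had 854.79 FPKM in the JJ012 control and 466.12 with melatonin, beside 279.99 and 308.43 FPKM for 143B. CALM3, which encodes calmodulin, had 33.04 and 15.38 FPKM in JJ012, beside 26.70 and 26.61 FPKM for 143B. RORA, a nuclear receptor, had 29.54 and 20.51 FPKM in 143B, a log2 change of -0.51, against 0.23 and 0.35 FPKM in JJ012. Of 10 genes for the breakdown of melatonin, which include the CYP1 genes, 3 were tested in each line, with 0 past the threshold in JJ012 and CYP1A1 and CYP1B1 in 143B. These counts stand beside the same shares of all genes. SULT1A1, which conjugates hydroxylated melatonin, had 112 and 66 counts in JJ012 and 0 in both 143B libraries.

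The genes most alike to each member were sought over the 4 libraries, in a set of 8522 protein-coding genes that reached 5 FPKM somewhere, by the Euclidean distance of log2(FPKM + 1) centred on the gene's mean. NQO2 was closest to SAMM50 (0.0355), SLC66A1 (0.0375) and BECN1 (0.0422). CYP1A1 was closest to TOP2A (0.0893), ANLN (0.180) and CDC20 (0.233). TOP2A had 10.29, 9.67, 12.18 and 4.76 FPKM in the JJ012 control, JJ012 with melatonin, the 143B control and 143B with melatonin, so that 143B with melatonin was the lowest library as for CYP1A1. CYP1B1, added after its values were seen, had no near match, the closest being HAS3 at 0.891, with 0.25, 0.25, 10.57 and 3.29 FPKM. These distances rest on 4 points and on the same libraries.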

How the data were processed

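Total RNA was poly(A)-selected and sequenced as paired reads in 4 libraries. The deposited table gives raw counts for each gene, and FPKM made by the authors, which are these counts divided by exonic length and library total and rounded to 2 decimals (recomputed here within 0.005). The submitters' processing notes name cutadapt 1.9.1, HISAT2 2.2.1, HTSeq 0.6.1, DESeq2 and hg38, without the part each played, and the strand setting is not given in the sources used here. A suffix T on a column was taken to mean melatonin, which no label spells out. The deposited columns of positions and Gene Ontology terms were also read.

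Log2 changes were taken on FPKM + 1 (pseudocount 1). Genes entered where a compared library reached 1 FPKM, and were counted at 0.58. CPM ratios have exact (Clopper-Pearson) 95% intervals, and folds against 0 use 3 counts per library. With 1 library per condition no test was made. Totals of 15889564 to 19218343 counts set the precision. All 10 members are named, with each gene of 6 written lists (56 genes) past the threshold. Genes most alike to NQO2, CYP1A1 and CYP1B1 and some of the overlapping genes are also named. One gene of the lists is counted but not reported by name here. Members and lists were chosen with earlier results of these data known. Gene types and exon overlaps came from GENCODE 29, whose gene spans equalled the deposited ones for 71.4% of 58254 shared genes. The calculations were tested on simulated data. Python 3.11.15 with scipy 1.17.1 was used, and edgeR 4.0.16 for TMM factors. In all, 11 alternatives were planned, and further scalings were added for NQO2, CYP1A1 and AHR after seeing the data.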

Additional observations from a re-analysis of the deposited data

Results flagged for a closer look

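Both lines were compared as melatonin over control, and for 5 genes the log2 ratios of CPM had opposite signs with intervals that both left out 0. The differences below are 143B minus JJ012, on the log2 scale, from 1 library per condition, and the difference was not tested. AHR differed by 1.68, from -1.30 in JJ012 and 0.38 in 143B. AHRR differed by -4.17, from 3.84 in JJ012, where it rests on 1 and 12 counts, and -0.33 in 143B, with an interval of the difference from -9.59 to -1.38. TIPARP differed by -1.75, from 0.94 in JJ012 and -0.81 in 143B. SLC7A5 differed by -1.39, from 1.10 and -0.29. CALR differed by 1.01, from -0.87 and 0.14.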

How the results depend on the processing

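No paired analysis was possible because each condition has 1 library and the libraries carry no shared replicate. In JJ012, 0 of the 2 members tested passed the threshold. As TPM 1 of 4 passed (MTNR1B, higher), as CPM 1 of 3 (AHR, lower), and by the CPM ratio with its interval 4 of 8. MTNR1B and AHR were under 1 FPKM in both JJ012 libraries and so did not enter the first count. The number of written-list genes past the threshold in JJ012 went from 9 (3 higher, 6 lower) to 14 as TPM (10 higher, 4 lower) and 14 as CPM (4 higher, 10 lower). It was 2 at a threshold of 1 and 21 by the CPM ratio with its interval. As TPM, NQO1, HSP90AA1 and GNAI2 no longer passed. NQO1 also did not pass after subtracting the running median of genes of similar exonic length. As TPM the median gene of JJ012 shifted to 0.21 and 62.4% of the genes that passed were higher, against 51.4%. In 143B, a filter of 5 FPKM left 1 of the 2 members (CYP1B1) and 2 of the 4 list genes. The other settings tried kept these counts within 1.5 times. Over its alternatives the log2 change in 143B ranged from -2.12 to -1.12 for CYP1A1 and from -2.65 to -2.30 for CYP1B1, and no value past the threshold changed sign. The log2 change of NQO2 in JJ012, close to 0, ranged from -0.03 to 0.28. Chosen after seeing the data, TPM gave a difference between the effects of -0.24 for NQO2 (0.09 as reported) and untreated log2 ratios of 0.71 for NQO2 and -0.57 for CYP1A1, and TMM scaling gave 0.74 for NQO2. The causes were not tested. Depth limits MTNR1A, MTNR1B, AANAT and ASMT, whose highest count was 12.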

Other observations

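Beyond the CYP1 family, all 55 protein-coding cytochrome P450 genes in the table were read, a list added after seeing the data. In 143B, 10 were tested, 0 rose and 4 fell, with a median of -0.45, beside 6.09% of all genes tested higher and 6.65% lower. Beside CYP1A1 and CYP1B1 these were CYP11A1, which starts steroid hormone synthesis by cleaving the cholesterol side chain (3.52 to 1.22 FPKM), and CYP27C1, which desaturates retinoids (15.28 to 9.48 FPKM). In JJ012, 16 were tested, 3 rose and 3 fell, with a median of -0.05, beside 19.6% of all genes tested higher and 18.6% lower. CYP51A1, of cholesterol synthesis, rose from 0.94 to 2.94 FPKM, CYP4F11 from 9.05 to 14.75 FPKM and CYP2S1 as given above. CYP24A1, which inactivates vitamin D, fell from 2.69 to 0.31 FPKM, CYP27C1 from 1.02 to 0.12 FPKM and CYP4X1 from 2.34 to 0.84 FPKM. CYP27C1 thus fell in both lines, and CYP4F11 had 0 counts in both 143B libraries.

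Of 96 genes with the Gene Ontology term xenobiotic metabolic process, also added after seeing the data, 31 were tested in JJ012, with 1 that rose and 9 that fell and a median of -0.31, beside the same 19.6% and 18.6% of all genes. In 143B, 23 were tested, with 1 that rose (BPHL) and 1 that fell (CYP1B1) and a median of 0.08, beside 6.09% and 6.65%. In JJ012 the genes that fell were AKR1C1, AKR1C2, AKR1C3, CBR3, CMBL, GSTP1, GUK1, NQO1 and SULT1A2, and the gene that rose was CYP2S1. The AKR1C genes are related in sequence, and reads may be split among them.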
